A study of Homo sapiens with 22 samples.

Results

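Depletion of HDAC6 by short hairpin RNA was examined in 6 of the 22 RNA-seq libraries of the series, namely replicates 1 and 2 of a control hairpin (shCtrl, 2 libraries) and of each of 2 hairpins against HDAC6 (shHDAC6-1 and shHDAC6-2, 4 libraries pooled into 1 arm). The labels give shCtrl as wild type and both hairpin groups as HDAC6 knockdown, all at day 0 and all as MDA-MB231, an established epithelial line of human triple-negative breast cancer grown in DMEM with 10% serum. No drug is given for these groups. The closing comparison uses 4 more libraries labelled wild type and day 2, 2 treated with 7.65 µM Nexturastat A, an inhibitor of HDAC6 activity, for 2 days and 2 with DMSO (Ctrl). No source used here gives the hairpin sequences, their vector or the selection of the cells. The labels do not say whether replicates came from separate cultures, so the p-values measure the spread between these libraries, which may be technical. The contrast was chosen by fold changes already seen in these libraries, and the 6 libraries were selected on how alike they are: replicate 3 of each group stands apart, was left out of the tests and was looked up afterwards. Across 11575 genes, log2 levels of the 6 libraries correlated pairwise at r = 0.945 to 0.996, and those of any of them with a replicate 3 library at 0.538 to 0.667. Total counts were 50.9 to 63.5 M (mega) per library. Genes with at least 10 counts in at least 2 of the 6 libraries were tested, 17821 of 26485, with 246 genes at exactly 10 in their second-highest library and 125 just outside at 9.

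HDAC6 is a mainly cytoplasmic member of the histone deacetylase family. It removes acetyl groups from α-tubulin, cortactin and the chaperone HSP90, and its zinc-finger domain binds ubiquitin, through which it links ubiquitinated aggregates to dynein motors and to autophagy. It is also known for driving disassembly of the primary cilium, and its inhibition has been studied as a therapy in breast cancer.

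The 6 libraries express CDKN2A and IRS4 and may not be MDA-MB231 cells. CDKN2A, which encodes the cell cycle inhibitors p16 and p14ARF and lies in a region deleted from the genome of MDA-MB231, was at 140.4 to 184 CPM (counts scaled to a library total of 1 M) in these 6 libraries and at 0 to 0.0345 CPM in the 13 libraries of the other experiments. IRS4, an insulin receptor substrate seen in few adult tissues, was at 337 to 679 CPM against 0 in all 13. A list of 14 genes typical of mesenchymal triple-negative lines, VIM and CD44 among them, summed to 1619 to 1730 CPM in the 6 libraries against 9766 to 11986 CPM in the 13. In replicate 3 the same list summed to 10255 CPM in shCtrl and 9891 to 9940 CPM with the hairpins, within the range of the 13. Single members in those hairpin libraries lay outside that range in both directions. CAV1 was at 97.8 to 134 CPM (305 to 796 in the 13) and ANXA1 at 61.1 to 75.8 (594 to 1135). LGALS1 was at 1270 to 1625 CPM (400 to 789 in the 13) and PLAUR at 362 to 585 (66.6 to 149). In replicate 3, CDKN2A and IRS4 were at 0 in shCtrl and at 7.11 to 24.1 and 7.31 to 22.3 CPM in the hairpin libraries. Between the groups compared here, 10 fetal genes including IRS4 summed to 947 to 1007 CPM in shCtrl and 1223 to 1543 CPM with the hairpins, 8 basal breast genes to 252 and 276 CPM against 334 to 373 CPM, and 11 luminal breast genes to 637 and 666 CPM against 497 to 535 CPM. Blood cell genes summed to at most 4.86 CPM with HBB at 0, and fibroblast and endothelial genes to 99.6 to 112 CPM over both groups. Members of that last list still moved apart, with COL1A1 at 40.8 and 49.7 CPM in shCtrl and 59.2 to 72.5 CPM with the hairpins, and COL3A1 at 46.7 and 49.6 CPM against 33.4 to 34.3 CPM. DCN was at 1.81 and 2.39 CPM against 0.550 to 0.818 CPM. The part that differences in cell identity play in the results below was not tested, and in bulk RNA fewer cells of a type and less RNA per cell cannot be told apart.

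HDAC6, on chromosome X from 48801377 to 48824982 (GRCh38), was lower in every hairpin library. It was measured at 45.6 and 52.9 CPM in shCtrl, 12.8 and 11.99 CPM with shHDAC6-1, and 12.4 and 14.04 CPM with shHDAC6-2. CPM from here on are scaled by the TMM factors of the fit, and each pair of values is replicate 1 and then replicate 2. The hairpin mean was 26.00% of the shCtrl mean, and the log2 fold change was -1.94 ± 0.11 (standard error, SE, n = 4 against 2). Adjusted p here and below are from edgeR's quasi-likelihood test with Benjamini-Hochberg adjustment, unless another test is named. HDAC6 was set with the choice of this contrast, so no p is given for it in the 6 libraries. With all 9 libraries its log2 fold change was -1.71 (edgeR adjusted p = 0.59). Each hairpin gave a similar estimate, at -1.99 ± 0.14 with shHDAC6-1 and -1.90 ± 0.14 with shHDAC6-2. In replicate 3, where HDAC6 was at 26.1 CPM in shCtrl, the log2 differences were -1.19 and -0.90.

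SLC39A6, CHAC1 and AURKB were singled out because of how they moved in these libraries, so their values are a description with no test. SLC39A6 encodes the zinc importer ZIP6, an oestrogen-responsive gene of breast tumours, on chromosome 18 from 36108532 to 36129385. It was at 24.1 and 21.7 CPM in shCtrl, 151 and 154 CPM with shHDAC6-1, and 149.97 and 147 CPM with shHDAC6-2, a 6.57-fold higher level with the hairpins (log2 fold change 2.72 ± 0.11). All 4 hairpin libraries lie close to each other and far above both controls. Scaled to library totals, SLC39A6 was at 95.3 to 150 CPM in the 13 libraries of the other experiments. On that scale shCtrl had 22.4 to 25.3 CPM and the hairpin libraries 142 to 152 CPM. In replicates 1 and 2 the controls are thus the ones far from the other experiments. In replicate 3, on the same scale, it was the hairpin libraries, at 15.3 to 16.8 CPM, with shCtrl at 110 CPM. CHAC1, a glutathione-degrading enzyme and target of the stress transcription factor ATF4, on chromosome 15 from 40952962 to 40956519, was at 7.43 and 7.87 CPM in shCtrl, 38.3 and 40.5 CPM with shHDAC6-1, and 36.3 and 42.6 CPM with shHDAC6-2. Its log2 fold change was 2.36 ± 0.12, and no hairpin library came near the controls. AURKB, the kinase of the chromosomal passenger complex that corrects chromosome attachment in mitosis, on chromosome 17 from 8204733 to 8210600, was at 160.4 and 178 CPM in shCtrl, 44.8 and 49.7 CPM with shHDAC6-1, and 45.00 and 47.9 CPM with shHDAC6-2. Its log2 fold change was -1.85 ± 0.09, with the hairpin libraries again tightly grouped and below both controls.

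Replicate 3 gave different pictures for these genes. Its hairpin libraries correlated with each other at r = 0.982 but with their own shCtrl at only 0.634 to 0.679. What part a difference between the cells plays in the replicate 3 values, in either direction, was not tested. CHAC1 was higher with both hairpins there as well, with log2 differences of 3.07 and 2.82. SLC39A6 went the other way, at -2.47 and -2.65, where shCtrl replicate 3 had 115 CPM and the hairpin libraries 20.7 and 18.3 CPM. AURKB differed little, at -0.10 and -0.26.

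**Figure D1:**
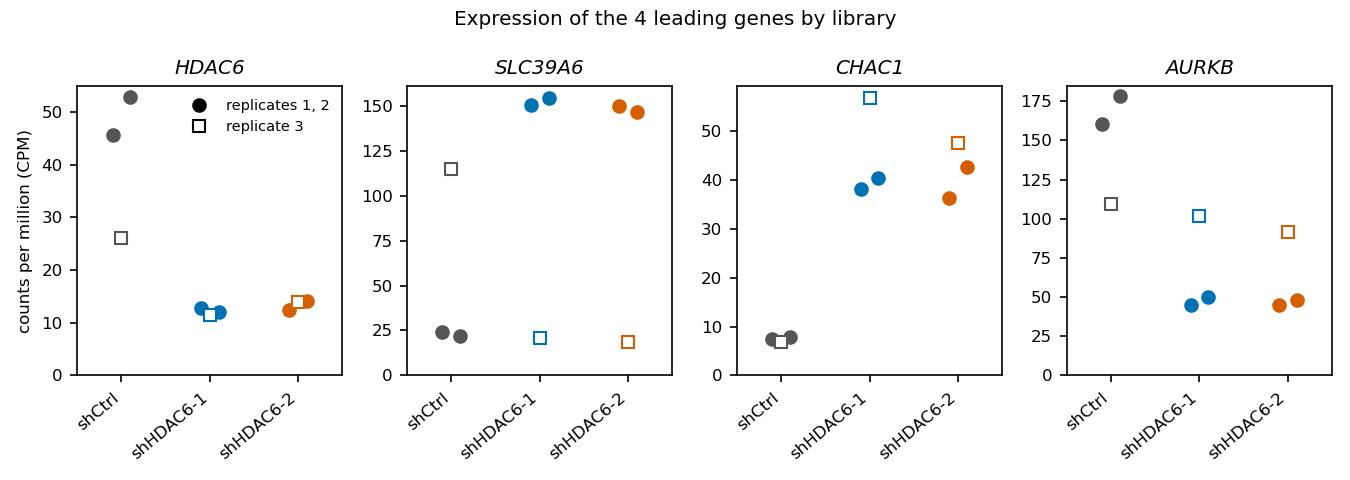
CPM (vertical axes, starting at 0) of HDAC6, SLC39A6, CHAC1 and AURKB in each library, with filled circles for replicates 1 and 2 and open squares for replicate 3. The hairpin circles do not overlap the shCtrl circles in any panel, and the squares reverse the order for SLC39A6.

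Promoter sequence is shown for CHAC1 and for ASNS, the asparagine synthetase gene, because both carry the element bound by ATF4 with C/EBP partners, TGATGNAA on either strand, and yet they differed in these libraries. The lines give 250 bases up to the transcription start, 5′ to 3′ on the gene's strand, from RefSeq (GRCh38.p14), at chr15:40953221-40953470 on the plus strand for CHAC1 and chr7:97872409-97872658 on the minus strand for ASNS, with the element in capitals.
CHAC1: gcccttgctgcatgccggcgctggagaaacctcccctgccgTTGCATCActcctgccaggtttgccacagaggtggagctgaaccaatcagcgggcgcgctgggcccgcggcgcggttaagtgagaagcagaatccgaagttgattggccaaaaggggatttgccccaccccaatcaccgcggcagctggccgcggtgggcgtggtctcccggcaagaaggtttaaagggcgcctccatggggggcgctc
ASNS: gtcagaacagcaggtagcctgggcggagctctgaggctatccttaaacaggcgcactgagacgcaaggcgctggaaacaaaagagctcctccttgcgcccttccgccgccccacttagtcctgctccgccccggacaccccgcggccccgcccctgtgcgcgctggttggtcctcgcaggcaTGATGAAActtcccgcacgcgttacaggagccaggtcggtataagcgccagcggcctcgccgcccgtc
The CHAC1 match begins 209 bases and the ASNS match 68 bases before the start. ASNS was at 194 and 165 CPM in shCtrl, 186 and 193 CPM with shHDAC6-1, and 182 and 158 CPM with shHDAC6-2, with overlapping groups (log2 fold change 0.00 ± 0.11, adjusted p = 0.997). In windows running 250 bases before to 50 after the start, which 13341 of the 17821 genes tested had in the table, the element was in 1.90% of all promoters. It was in 16 of 48 promoters (33.3%) of the 4 ATF4 lists described below, and it was in 7 of the 23 whose gene rose and 7 of the 18 whose gene was not called. CHAC1, chosen for its change, is among the 7 whose gene rose. In the last 150 bases before the start alone it was in 5 of the 48 (10.4%) against 0.929% of all. A match is a run of letters and does not show binding.

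The whole comparison was broad. In the pooled test 5897 genes (33.1%) passed an adjusted p of 0.05, 2983 of them (16.7%) higher and 2914 (16.4%) lower with the hairpins; they are said to have risen or fallen, or to be called. Large changes leaned downwards, with 296 genes (1.66%) more than 2-fold higher and 697 (3.91%) more than 2-fold lower. Past 4-fold the counts were 35 (0.196%) and 76 (0.426%). The 4 hairpin libraries did not overlap the 2 controls in 8668 genes (48.6%), so lack of overlap is common here. Set against the same 2 controls, shHDAC6-1 gave 5381 calls (30.2%) and shHDAC6-2 gave 4877 (27.4%).

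No gene was called between shHDAC6-1 and shHDAC6-2 with edgeR or with DESeq2. In edgeR 1115 of 17821 genes had an unadjusted p under 0.05, a threshold that a share of about 0.05 passes by chance alone. The lack of calls does not show that the hairpins act alike, because a difference between 2 libraries and 2 leaves wide intervals. For HDAC6 itself the difference of shHDAC6-1 minus shHDAC6-2 was -0.09 (95% interval -0.39 to 0.20) on the log2 scale. FBN2, an extracellular microfibril gene, and AGO2, the Argonaute that cuts guided RNA targets, had more distant estimates, with unadjusted intervals, at -0.39 (95% interval -0.64 to -0.14) and -0.46 (95% interval -0.77 to -0.16); these 2 were picked after their values were seen.

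The 12 highest and 12 lowest fold changes among called genes of at least 5 mean log2 CPM are described here as a ranking, with no test. Only genes whose hairpin and shCtrl libraries do not overlap could enter it, so their separation follows from the choice. SLC39A6 led the higher side. NR6A1, an orphan nuclear receptor of germ and stem cells, was next, at 15.6 and 15.7 CPM in shCtrl, 80.5 and 75.2 CPM with shHDAC6-1, and 94.8 and 94.7 CPM with shHDAC6-2. KIF3B, a motor subunit of the kinesin that carries cargo along cilia and axons, was at 14.5 and 15.9 CPM in shCtrl, 69.05 and 63.2 CPM with shHDAC6-1, and 79.01 and 75.7 CPM with shHDAC6-2. GLTP, a glycolipid transfer protein, was 4.63-fold higher, FBN2 4.28-fold and the metabolic enzyme IDH1, cytosolic isocitrate dehydrogenase, 3.21-fold. The others were ZHX1, a zinc-finger homeobox repressor, TRUB1, a tRNA pseudouridine synthase, PHTF2, TERF2IP, the telomere protein RAP1, PRELID1, a mitochondrial lipid carrier, and PPIL1, a spliceosomal isomerase, at log2 fold changes of 1.80 to 2.35.

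SRRM2, a large scaffold of nuclear splicing speckles, stood lowest, at 838 and 1137 CPM in shCtrl, 227 and 182 CPM with shHDAC6-1, and 242 and 259 CPM with shHDAC6-2. All 4 hairpin libraries were far below both controls. PRR13, a regulator of thrombospondin and taxane response, was at 110.3 and 114 CPM in shCtrl, 30.7 and 32.7 CPM with shHDAC6-1, and 28.6 and 30.8 CPM with shHDAC6-2. AURKB was the third in rank. PAK4, a kinase acting below CDC42, and WASF1, a WAVE complex member that drives actin branching, stood at log2 fold changes of -1.79 ± 0.14 and -1.78 ± 0.09. PVRL1, which encodes the adhesion protein nectin-1, was at -1.57 ± 0.15, CREB3L2, a membrane-bound transcription factor of the secretory pathway, at -1.52 ± 0.11, and ZNF703, a repressor amplified in luminal breast cancer, at -1.45 ± 0.12. KIAA1522, CTXN1, SLC25A10, the mitochondrial dicarboxylate carrier, and SOCS7, a signalling suppressor, ranged from -1.56 to -1.41.

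In replicate 3, FBN2 (log2 differences 4.15 and 5.90) and PRELID1 (1.67 and 1.70) were also higher with both hairpins, while ZHX1 (-4.45 and -4.44) and KIF3B (-1.77 and -1.93) were lower. WASF1 (-1.37 and -1.47) and CREB3L2 (-0.85 and -1.39) were lower there too, and PAK4 (1.62 and 1.20) was higher. Of these 24 genes, ZHX1, FBN2, TERF2IP, PRELID1, PPIL1, IDH1 and SRRM2 overlap another tested gene, and with the strand setting of the counting not given, reads from the overlap cannot be told apart.

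**Figure D2:**
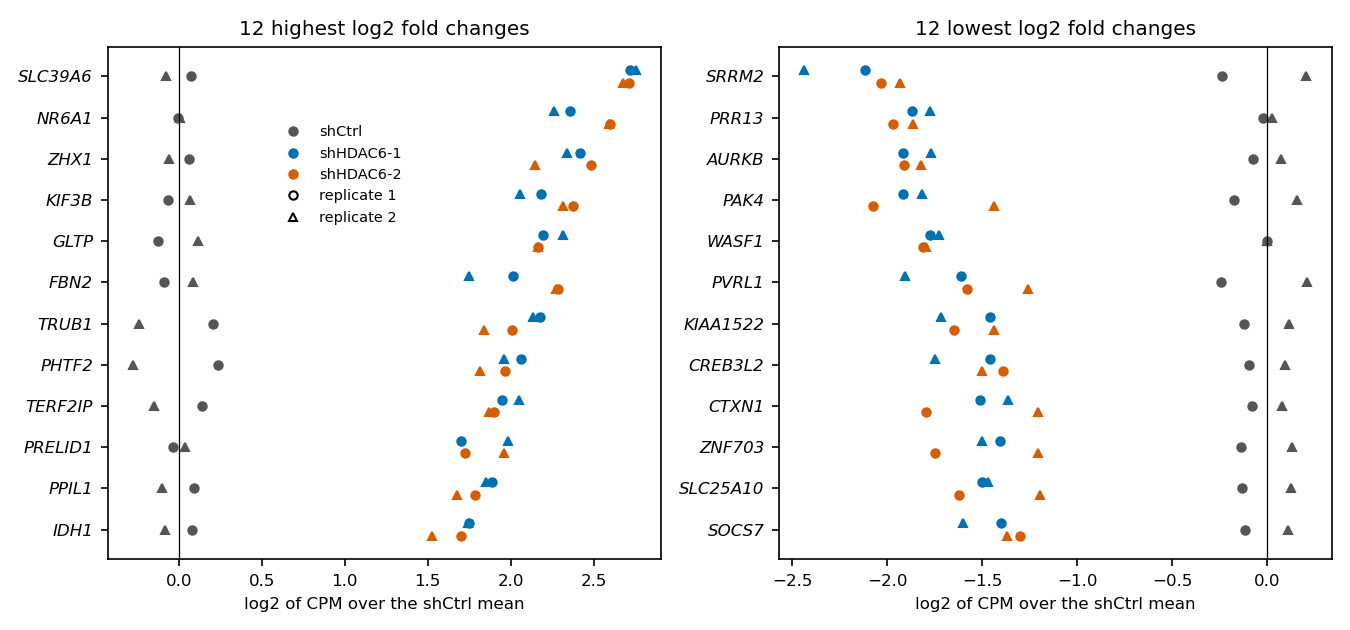
Log2 ratio of CPM to the shCtrl mean (horizontal axes) for the 12 highest and 12 lowest genes, by library, with colour for the group and circles or triangles for replicates 1 and 2. SLC39A6 heads the left panel at a log2 fold change of 2.72 and SRRM2 the right panel at -2.12. The genes were chosen to have no overlap, so no hairpin point can reach a shCtrl point.

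Gene lists were read against these background shares, with a median log2 fold change of -0.0045 over all genes tested. Counts are over the members found in the files that passed the count minimum, which were 17 of 28 MAGE genes, 6 of 10 in the metallothionein list and all but at most 3 of every other list. With trends on GC content and length removed per library, the calls covered 46.2% of 17100 genes (27.8% on the higher and 18.4% on the lower side), and list counts with the trends removed are to be read against those shares. Among 18 histone deacetylases and sirtuins, 2 rose and 5 fell, HDAC6 itself being 1 of the 5, and the median was -0.14. SIRT5, the mitochondrial desuccinylase, fell most after HDAC6, at 30.6 and 28.2 CPM in shCtrl, 16.3 and 14.4 CPM with shHDAC6-1, and 14.1 and 12.7 CPM with shHDAC6-2 (log2 fold change -1.03 ± 0.12, edgeR adjusted p = 1.3e-05). SIRT1, a nuclear deacetylase, rose by 0.67 and HDAC8, the cohesin deacetylase, by 0.32. SIRT6 (-0.48), HDAC7 (-0.34) and SIRT2 (-0.33), the other tubulin deacetylase, fell by small amounts, and none of these 3 was called once the trends were removed. The class I enzymes HDAC1 (0.08), HDAC2 (0.24) and HDAC3 (-0.15) and the nearest relative HDAC10 (-0.08) did not pass.

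Of 24 substrates and partners of HDAC6, 9 rose and 1 fell (median 0.21), or 15 higher and 0 lower with GC and length trends removed. The dynein light intermediate chain DYNC1LI2, part of the motor that HDAC6 couples to aggregates, was at 57.8 and 50.8 CPM in shCtrl, 169 and 165 CPM with shHDAC6-1, and 173 and 143 CPM with shHDAC6-2, with every hairpin library above both controls (log2 fold change 1.58 ± 0.11, edgeR adjusted p = 1.8e-07). SEPT7 (0.86), a filament-forming septin, G3BP1 (0.83), the stress granule nucleator, and SQSTM1 (0.61), the ubiquitin receptor p62, also rose. The tubulin acetyltransferase ATAT1 (-0.03 ± 0.15) and the actin-binding substrate CTTN (0.05 ± 0.09) did not pass.

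Tubulin genes split evenly, with 2 of 15 higher and 2 lower (median -0.06), or 6 higher and 1 lower with the trends removed. TUBE1 (0.46) and TUBB2B (0.30) rose and TUBB3 (-0.39) and TUBG2 (-0.32) fell, and neither of the last pair was called with the trends removed. Counts are of mRNA and do not measure tubulin acetylation. Among 35 genes of the primary cilium, 4 rose and 8 fell (median -0.13), with 6 higher and 16 lower once the trends were removed. KIF3B was the outlying member, followed by IFT20 at 0.88 ± 0.13, an intraflagellar transport protein. BBS1, of the BBSome that sorts ciliary cargo, fell by 0.57. KIF3A (-0.04) and KIFAP3 (-0.07), the partners of KIF3B in its motor, did not pass.

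ATF4 is the transcription factor of the integrated stress response, translated when EIF2 is phosphorylated. Among 22 kinases and regulators of that pathway 13 rose and 1 fell (median 0.41). CHAC1, chosen for its change, is 1 of the 13. ATF4 itself was at 688 and 649.6 CPM in shCtrl, 876 and 879 CPM with shHDAC6-1, and 818 and 840.1 CPM with shHDAC6-2 (0.35 ± 0.08, adjusted p = 0.0045). TRIB3 (0.93 ± 0.13), a pseudokinase that feeds back on ATF4, VLDLR (0.84 ± 0.10), a lipoprotein receptor, STC2 (0.73 ± 0.10), a secreted glycoprotein, and DDIT3 (0.56 ± 0.12), the stress factor CHOP, rose, while the phosphatase subunit PPP1R15A (-0.15) did not pass. Enzymes of amino acid synthesis had 2 of 15 higher and 3 lower (median 0.01). CTH, which makes cysteine, rose by 0.57, BCAT1, which transfers amino groups of branched-chain amino acids, was at -0.86 ± 0.10, and CBS (-0.42) and PYCR1 (-0.39) fell but were not called with the trends removed.

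Of 13 amino acid transporters 5 rose and 4 fell (median 0.18). SLC7A11, the cystine importer that supplies glutathione synthesis, was at 60.2 and 49.6 CPM in shCtrl, 123 and 113 CPM with shHDAC6-1, and 129 and 113 CPM with shHDAC6-2 (log2 fold change 1.12 ± 0.11). SLC38A2, a glutamine and alanine importer, was at 0.77 ± 0.11, and SLC38A7, a lysosomal glutamine exporter, at -1.07 ± 0.12. Of the 10 tRNA synthetases matched out of 13, 6 rose and 1 fell (median 0.29), with YARS at 0.62 ± 0.09, VARS at 0.60 ± 0.13 and AARS, the alanine enzyme, at -0.46 ± 0.10.

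Of 21 endoplasmic reticulum chaperones and unfolded protein response genes, 12 rose and 2 fell (median 0.36). HSPA5, the main chaperone BiP, was at 2123 and 2076 CPM in shCtrl, 3475 and 3710.1 CPM with shHDAC6-1, and 3588 and 3504 CPM with shHDAC6-2, and all 4 hairpin libraries lie above both controls (log2 fold change 0.77 ± 0.08, edgeR adjusted p = 3.4e-06). DNAJB9 (0.88 ± 0.15), a co-chaperone of BiP, PDIA4 (0.82 ± 0.08), a disulphide isomerase, and HSP90B1 (0.73 ± 0.10), the resident HSP90, rose with it. HYOU1 (-0.72 ± 0.10) and the calcium-binding CALR (-0.47 ± 0.09) fell. XBP1 (-0.05) and HERPUD1 (0.20) did not pass. Cytosolic heat shock genes were mixed, with 3 of 19 higher and 4 lower (median -0.01). HSF4, a heat shock factor of lens, was at 10.7 and 11.1 CPM in shCtrl, 1.67 and 2.37 CPM with shHDAC6-1, and 2.48 and 2.28 CPM with shHDAC6-2. DNAJB6 rose by 0.98, and HSP90AA1 (-0.03), an HDAC6 substrate, did not pass. HSPA1B was at -0.80 ± 0.09, but its reads are nearly identical to those of HSPA1A and the split between the copies is uncertain.

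Of 18 genes of the chromosomal passenger complex and mitotic kinases 4 fell and 2 rose (median -0.18). AURKB, chosen for its change, is 1 of the 4, and the share called is near the 33.1% of all genes. INCENP, the scaffold that activates AURKB, was at 158 and 208 CPM in shCtrl, 135 and 130.4 CPM with shHDAC6-1, and 161 and 171 CPM with shHDAC6-2, with overlapping groups (log2 fold change -0.29 ± 0.13, edgeR adjusted p = 0.093). BIRC5 (-0.11 ± 0.09, adjusted p = 0.38), which encodes survivin, and CDCA8 (-0.22 ± 0.10, adjusted p = 0.11), which encodes borealin, did not pass either. PKMYT1 (-0.76 ± 0.13), an inhibitory kinase of CDK1, AURKA (-0.45 ± 0.09) and PLK1 (-0.30 ± 0.10) fell, and CCNA2 (0.35 ± 0.10) and WEE1 (0.28 ± 0.10) rose. PLK1 and WEE1 were not called with the trends removed.

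The promoters of AURKB and PLK1 are shown because mitotic genes share a pair of elements in this region, the cell cycle homology region (TTTGAA or TTCGAA) and the CCAAT box (CCAAT), each searched on both strands. Both are marked in capitals in 250 bases before the start from RefSeq (GRCh38.p14), at chr17:8210226-8210475 on the minus strand and chr16:23678639-23678888 on the plus strand.
AURKB: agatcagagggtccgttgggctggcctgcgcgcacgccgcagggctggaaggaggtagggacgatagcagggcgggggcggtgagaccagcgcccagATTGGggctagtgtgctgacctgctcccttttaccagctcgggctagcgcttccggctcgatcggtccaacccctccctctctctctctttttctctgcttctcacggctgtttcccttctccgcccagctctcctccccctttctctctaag
PLK1: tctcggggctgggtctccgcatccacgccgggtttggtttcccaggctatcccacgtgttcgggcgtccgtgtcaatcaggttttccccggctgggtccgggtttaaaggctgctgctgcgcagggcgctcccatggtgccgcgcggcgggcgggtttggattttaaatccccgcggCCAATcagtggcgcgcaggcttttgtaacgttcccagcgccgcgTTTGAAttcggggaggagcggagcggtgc
AURKB had no match to the homology region in this window, which says only that these letters are not there, and 1 CCAAT box beginning 153 bases before the start. PLK1 had a homology region 29 bases and a CCAAT box 73 bases before it. In windows extended to 50 bases after the start, the homology region was in 32 of 42 promoters (76.2%) of the mitotic lists against 11.7% of all, and the CCAAT box in 35 (83.3%) against 36.1%. In the last 150 bases before the start alone these were 20 (47.6%) against 4.92% and 33 (78.6%) against 26.7%. The homology region was in 5 of 7 promoters of mitotic genes that fell and 25 of 32 of those not called.

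Spindle, kinetochore and checkpoint genes had 2 of 34 higher and 7 lower (median -0.07), or 5 higher and 17 lower with GC and length trends removed. HMMR, a spindle assembly factor, was at -0.85 ± 0.13, ESPL1, the separase that cuts cohesin, at -0.72 ± 0.11, CDCA3 at -0.45 ± 0.10 and FOXM1, a transcription factor of mitotic genes, at -0.44 ± 0.11. DNA replication genes had 4 of 44 higher and 15 lower (median -0.16), or 9 higher and 13 lower with the trends removed. RRM2, the small subunit of ribonucleotide reductase, was at 152 and 137 CPM in shCtrl, 277 and 296 CPM with shHDAC6-1, and 289 and 258 CPM with shHDAC6-2 and rose (0.96 ± 0.10, edgeR adjusted p = 5.4e-06), with the hairpin libraries above both controls. The polymerase subunits POLD1 (-0.79 ± 0.11) and POLA1 (-0.72 ± 0.10) and the licensing inhibitor GMNN (-0.57 ± 0.11) fell, and PCNA (-0.16) did not pass.

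Among 25 genes of DNA damage, growth arrest and apoptosis 5 rose and 6 fell (median 0.03). CDKN1A, the cell cycle inhibitor p21, was at 129 and 131 CPM in shCtrl, 60.4 and 65.9 CPM with shHDAC6-1, and 55.8 and 64.3 CPM with shHDAC6-2 and fell by 1.08 on the log2 scale. BAX (-1.08 ± 0.10), a pore-forming apoptosis effector, and ZMAT3 (-1.08 ± 0.12), an RNA-binding protein, fell to a like degree. TNFRSF10B, the death receptor DR5 and also a target of CHOP, was at 84.7 and 90.6 CPM in shCtrl, 193 and 183 CPM with shHDAC6-1, and 194 and 199.6 CPM with shHDAC6-2 and rose (1.13 ± 0.09). MDM2, a ubiquitin ligase, rose by 0.41. In the BCL2 family 5 of 18 rose and 3 fell (median 0.18), including BCL2L2 (0.77 ± 0.10), a survival factor, BIK (0.72 ± 0.17), a death-promoting member, and BOK (-0.80 ± 0.16).

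Of 25 cholesterol genes 11 rose and 2 fell (median 0.23), or 19 higher and 2 lower with the trends removed. SQLE, squalene epoxidase, was at 55.4 and 47.2 CPM in shCtrl, 118 and 118 CPM with shHDAC6-1, and 118 and 106 CPM with shHDAC6-2, so every hairpin library was above both controls (1.16 ± 0.10, edgeR adjusted p = 1.6e-06). INSIG1 (1.14 ± 0.11), a brake on sterol signalling, and HMGCS1 (1.06 ± 0.11), an early synthesis enzyme, rose. Fatty acid genes had 7 of 16 higher and 1 lower (median 0.25), with ME1 (0.93 ± 0.13), malic enzyme, and ACACA (0.85 ± 0.15), acetyl-CoA carboxylase, up and the regulator SREBF1 (-0.64 ± 0.11) down.

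Zinc transporters had 7 of 22 higher and 3 lower (median 0.18, with SLC39A6 among the 7). SLC30A4 (0.84 ± 0.15) and SLC30A7 (0.70 ± 0.10), which move zinc into vesicles and the Golgi, and SLC39A8 (0.56 ± 0.10), an importer, rose. SLC39A10, the closest relative and partner of SLC39A6, fell by 0.49. Metallothioneins, small zinc-binding proteins induced by the metal through MTF1, were tested with that factor as a list of 6, of which 4 fell and none rose, with none risen with the trends removed either (median -0.99). MT2A was at 74.7 and 64.4 CPM in shCtrl, 39.6 and 42.3 CPM with shHDAC6-1, and 33.3 and 37.1 CPM with shHDAC6-2 (-0.87 ± 0.11, edgeR adjusted p = 3.3e-05). MT1E (-1.83 ± 0.25), MT1F (-1.07 ± 0.16) and MT1X (-0.91 ± 0.12) fell, and MTF1 (-0.25 ± 0.10) did not pass. In replicate 3 the direction was the other one, with MT2A at 1.71 and 1.05. Metallothionein copies are similar in sequence, so the share of each is uncertain.

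Of 41 interferon-stimulated and RNA-sensing genes, 17 fell and 3 rose (median -0.36). OAS1, a sensor of double-stranded RNA, was at 3.69 and 3.15 CPM in shCtrl, 1.37 and 1.51 CPM with shHDAC6-1, and 1.33 and 1.44 CPM with shHDAC6-2 (-1.27 ± 0.20, edgeR adjusted p = 0.00021). OAS2 (-1.70 ± 0.32), MX2 (-1.48 ± 0.54) and RSAD2 (-1.45 ± 0.33) fell from levels of under 3 CPM. ISG15 (-0.56), a ubiquitin-like modifier, and IFIT1 (-0.60) fell, though ISG15 was not called with the trends removed. EIF2AK2 (0.53), the kinase PKR, and ADAR (0.39), the RNA editor, rose.

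Genes that process and use small RNAs had 6 of 13 higher and none lower (median 0.13). DICER1, which cuts hairpin precursors, was at 123 and 118 CPM in shCtrl, 237 and 219 CPM with shHDAC6-1, and 272 and 244 CPM with shHDAC6-2 (1.01 ± 0.10, edgeR adjusted p = 5.4e-06), and all hairpin libraries were above both controls. AGO2 was at 39.2 and 55.8 CPM in shCtrl, 89.3 and 70.1 CPM with shHDAC6-1, and 105 and 115 CPM with shHDAC6-2 (1.00 ± 0.18). TNRC6A (1.09 ± 0.11) and TNRC6C (1.16 ± 0.14), scaffolds of silencing, rose by similar amounts, DROSHA (0.37) and AGO4 (0.35) by less, and AGO1 (-0.22) and XPO5 (0.03) did not pass. With the trends removed 8 were higher and 1 lower. In replicate 3 DICER1 stood at -4.12 and -4.23.

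Autophagy and lysosome genes had 12 of 35 higher and 7 lower (median 0.18). GPNMB, a lysosomal glycoprotein, was at 14.2 and 12.6 CPM in shCtrl, 2.30 and 2.79 CPM with shHDAC6-1, and 2.31 and 3.43 CPM with shHDAC6-2 (-2.30 ± 0.17), TAX1BP1, a ubiquitin receptor of autophagy, was at 1.24 ± 0.12, and TMEM55A, a lipid phosphatase, at 0.70 ± 0.16. MITF, a regulator of lysosomal genes, fell by 0.69, while TFEB (0.21) did not pass. MAP1LC3A was called lower from at most 0.255 CPM. Splicing factors of the SR group had 3 of 25 higher and 3 lower (median 0.01). The 3 that fell, SRRM2, SRRM3 (-0.98 ± 0.12) and SRRM1 (-0.64 ± 0.10), are SR-related matrix proteins. SRRM4, also of that kind and tested, was not called lower. CLK1, a kinase of SR proteins, was at 0.50 ± 0.13. Cohesin, condensin and CTCF genes had 7 of 28 higher and 1 lower (median 0.11), led by the loader MAU2 (0.52 ± 0.11), STAG1 (0.43 ± 0.10) and SMC2 (0.40 ± 0.10), with LDB1 (-0.61 ± 0.12), a looping factor, lower and CTCF (0.11) not called.

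Immediate early genes had 5 of 25 higher and 9 lower (median -0.14), but 12 higher and 7 lower with the trends removed. CYR61, a matrix protein and target of the coactivator YAP, was at 246 and 248 CPM in shCtrl, 117 and 123 CPM with shHDAC6-1, and 109 and 122 CPM with shHDAC6-2, and the like gene CTGF was at -0.97 ± 0.11. NR4A1, an orphan nuclear receptor, fell by 0.95 and KLF2, a vascular transcription factor, by 0.84, and KLF2 was not called with the trends removed. FOS (0.58) and JUN (0.54) rose. Of 17 MAGE genes, which are germline genes switched on in tumours, 1 rose and 6 fell (median -0.25). MAGEC1 was at 19.2 and 16.9 CPM in shCtrl, 1.55 and 1.36 CPM with shHDAC6-1, and 1.68 and 1.15 CPM with shHDAC6-2, 12.6-fold lower with the hairpins (-3.65 ± 0.16, edgeR adjusted p = 3.4e-09). MAGEC2 (-0.99 ± 0.11), MAGEB6 (-1.22 ± 0.25) and MAGEB2 (-0.69 ± 0.21) fell less.

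Epithelial and mesenchymal genes had 5 of 26 higher and 4 lower (median 0.10). TGFBR2, the ligand-binding receptor of TGF-β, was at 10.9 and 10.3 CPM in shCtrl, 34.1 and 33.4 CPM with shHDAC6-1, and 35.4 and 34.6 CPM with shHDAC6-2, with the hairpin libraries in a narrow band above the controls (1.69 ± 0.11, edgeR adjusted p = 1.1e-07). Its partner TGFBR1 was at 0.62 ± 0.10. TGFBI (-0.86 ± 0.16), a matrix gene induced by TGF-β, and the junction gene CLDN7 (-1.02 ± 0.20) fell, and VIM (0.13) and CDH1 (0.23) did not pass. Cytosolic ribosomal protein genes had 6 of 59 higher and none lower (median 0.12), and genes of oxidative phosphorylation 12 of 45 higher and none lower (median 0.19). With the trends removed these became 29 higher and 0 lower and 29 higher and 1 lower. RPS20 (0.85 ± 0.10), RPL22 (0.33 ± 0.11) and RPL14 (0.32 ± 0.08) and the respiratory chain members COX4I1 (1.03 ± 0.10) and NDUFA10 (0.60 ± 0.09) were examples.

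**Figure D3:**
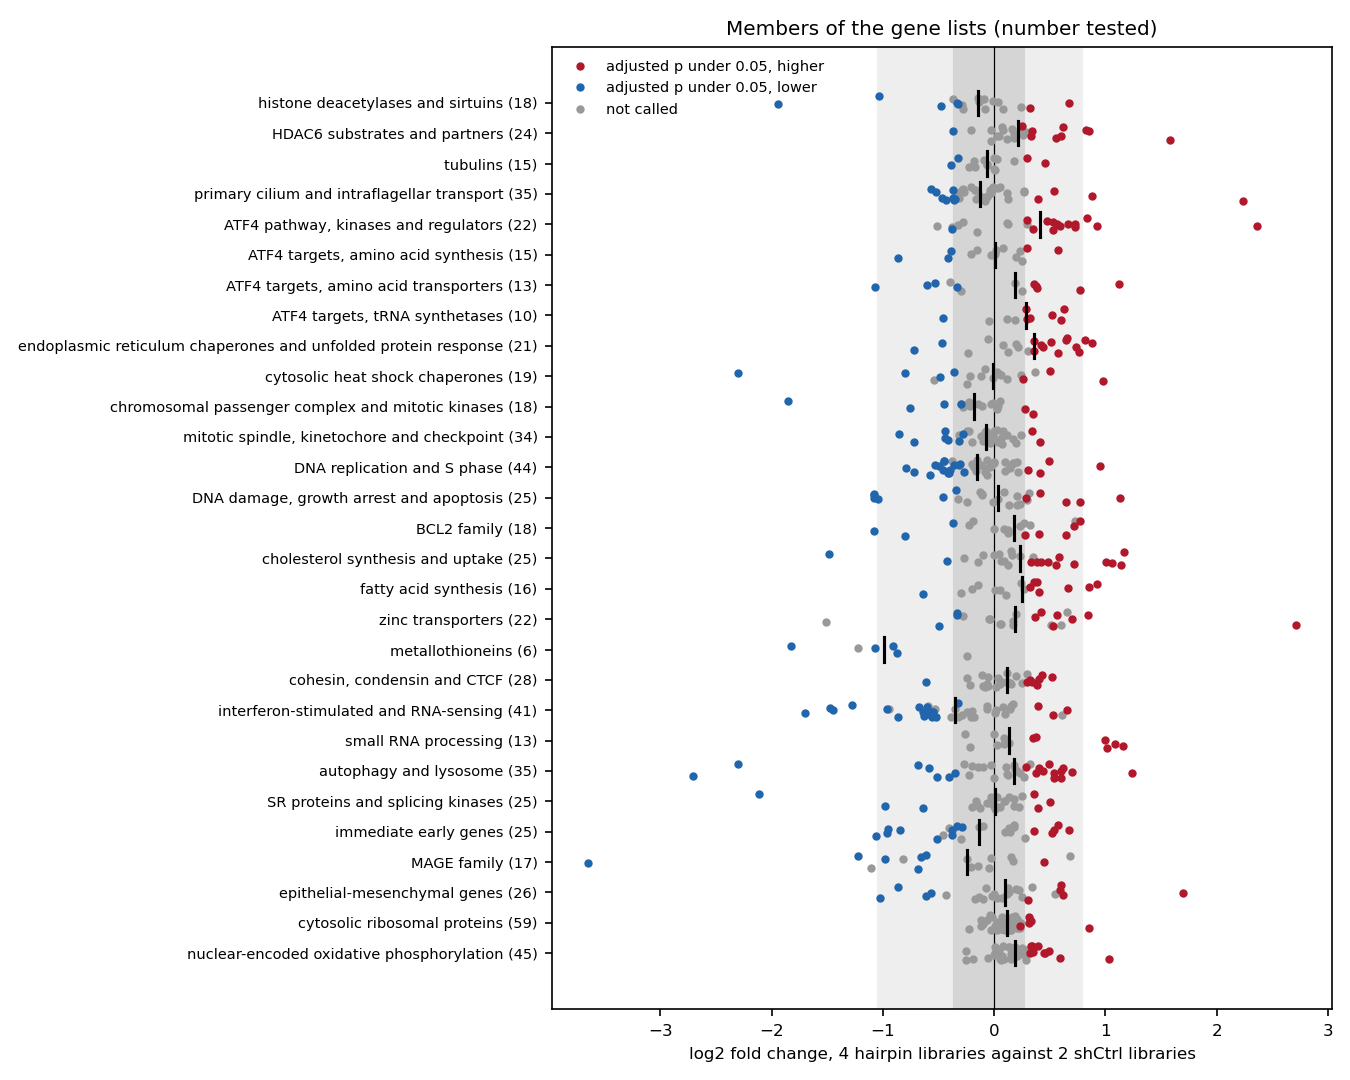
Log2 fold change of every tested member of each gene list, with the number tested in brackets, red and blue for called higher and lower, grey for not called and a black bar for the list median. Grey bands hold the middle 50% and 90% of all genes tested; MAGEC1 at -3.65 and SLC39A6 at 2.72 are the outermost members, and the metallothionein median lies at -0.99.

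The direction of change was related to base composition. Across 17100 genes with a matched transcript, the log2 fold change declined with GC content (Spearman rho -0.33 as a description, genes not being independent), at -0.24 in replicate 1 and -0.39 in replicate 2. In the lowest of 5 equal bins of GC content 28.01% rose and 6.05% fell, and in the highest bin 5.50% rose and 32.5% fell. With trends on GC content and length removed per library, SLC39A6 was at 2.61, CHAC1 at 2.71, HDAC6 at -1.79 and AURKB at -1.63. Removing the trends gave 7907 calls, of which 60.1% were higher, against 50.6% as fitted. Of the main calls in that fit, 5090 of 5781 kept call and direction and 43 changed sign, and 304 genes more than 2-fold higher and 486 more than 2-fold lower were then called. Against shares of 27.8% higher and 18.4% lower over all genes in that fit, the lists given above only as fitted had 4 higher and 3 lower for histone deacetylases and sirtuins, 4 higher and 1 lower for amino acid synthesis, 8 higher and 5 lower for cytosolic heat shock genes, 8 higher and 7 lower for DNA damage, growth arrest and apoptosis genes, 9 higher and 2 lower for the BCL2 family and 11 higher and 3 lower for zinc transporters. There were 1 higher and 7 lower for the passenger complex and mitotic kinases, 3 higher and 8 lower for SR splicing factors, 8 higher and 5 lower for cohesin, condensin and CTCF, 10 higher and 2 lower for fatty acid genes, 18 higher and 7 lower for autophagy and lysosome genes and 8 higher and 5 lower for epithelial and mesenchymal genes. There were 13 higher and 2 lower for the ATF4 regulators, 6 higher and 3 lower for amino acid transporters, 7 higher and 2 lower for tRNA synthetases, 14 higher and 2 lower for endoplasmic reticulum genes, 4 higher and 17 lower for interferon genes and 2 higher and 6 lower for MAGE genes. Of the genes named above as not passing, HDAC10, CTTN, HERPUD1 and TFEB were called higher in that fit and KIF3A, KIFAP3 and MTF1 lower. What the trend comes from was not tested.

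Single libraries bore on the list counts. Without shCtrl replicate 2, 21 of the 58 counts of members higher or lower moved by over 1.5 times, and without any other library 4 to 9 did. Without shCtrl replicate 2, DNA replication genes had 9 lower in place of 15, immediate early genes 4 lower in place of 9, and deacetylases and sirtuins 2 lower in place of 5. On the higher side cohesin, condensin and CTCF genes had 2 in place of 7, ribosomal proteins 1 in place of 6, tRNA synthetases 3 in place of 6 and the BCL2 family 3 in place of 5, and the other 14 of these counts were under 5 as fitted. Without shCtrl replicate 1, amino acid transporters had 2 higher in place of 5, spindle genes 4 lower in place of 7 and ribosomal proteins 12 higher in place of 6. Without shHDAC6-2 replicate 1, cilium genes had 5 lower in place of 8, amino acid transporters 2 higher in place of 5 and tRNA synthetases 3 in place of 6. Without shHDAC6-1 replicate 1, deacetylases and sirtuins had 3 lower in place of 5 and the BCL2 family 3 higher in place of 5. Without shHDAC6-2 replicate 2, ribosomal proteins had 10 higher in place of 6.

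**Figure D4:**
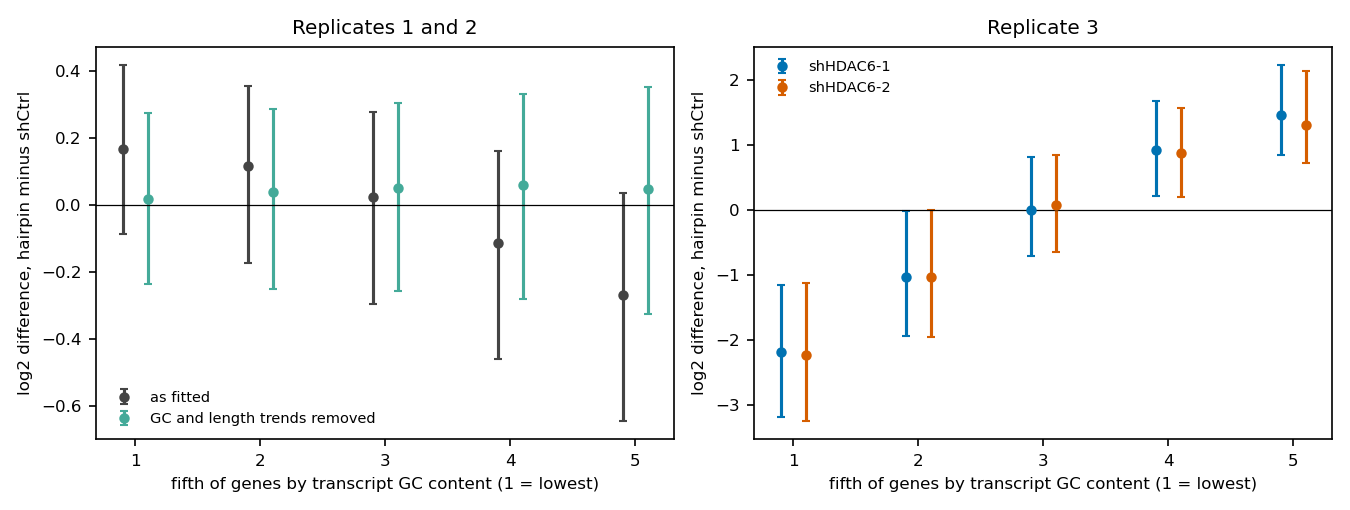
Median log2 difference between hairpins and shCtrl (points) with the quartiles (bars) in 5 equal bins of genes by GC content, for replicates 1 and 2 before and after trend removal (left) and for replicate 3 by hairpin (right; the vertical scale is wider). The medians as fitted run from 0.17 in the lowest bin to -0.27 in the highest, and replicate 3 slopes the other way.

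Taken within each replicate number, the hairpin differences of replicates 1 and 2 rest on separate libraries, and they correlated across genes at r = 0.61 and rho = 0.66, again as a description. Replicate 3, whose hairpin libraries correlated with their own shCtrl at r = 0.634 to 0.679, did not follow them. Of the 2983 genes that rose, 30.7% were higher with both hairpins in replicate 3 and 63.5% were lower, and of the 2914 that fell, 22.2% were lower and 68.7% higher, where all genes tested had 45.6% higher and 43.4% lower. Its differences increased with GC content, at rho = 0.73 for shHDAC6-1 and 0.70 for shHDAC6-2. Named genes with the same direction there included HDAC6, CHAC1, FBN2, PRELID1, TRIB3 (1.46 and 3.46), SQSTM1 (1.85 and 2.31), HMMR (-4.50 and -4.28), BCAT1 (-2.73 and -2.07) and GPNMB (-0.89 and -0.69). Those with the opposite direction included SLC39A6, TGFBR2 (-1.09 and -0.73), SLC7A11 (-4.41 and -2.88), CDKN1A (3.84 and 2.89) and CYR61 (2.33 and 1.70). With all 9 libraries in the fit no gene was called by edgeR and DESeq2 called 43. In edgeR 616 of 18269 genes had an unadjusted p under 0.05, where chance alone gives a share of about 0.05.

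**Figure D5:**
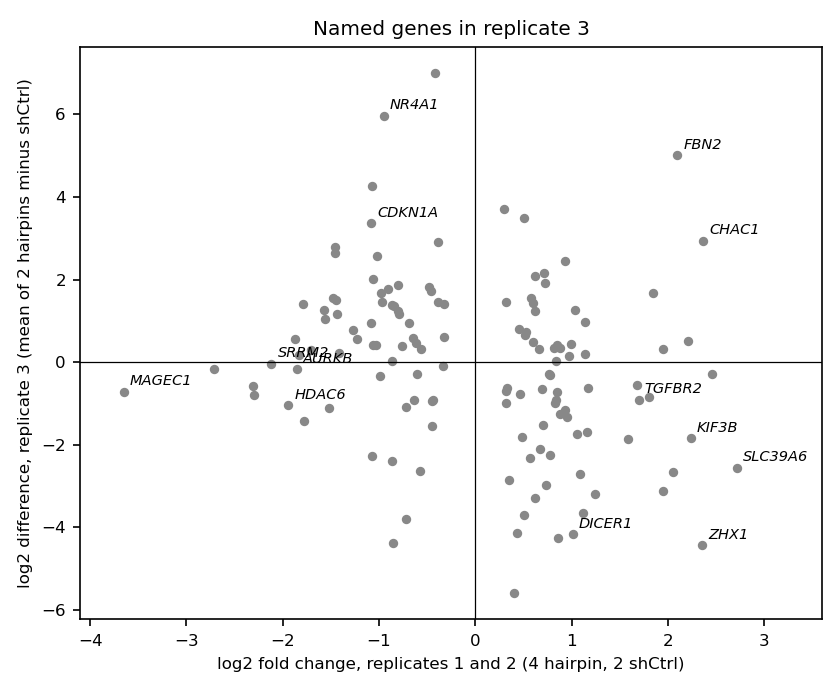
Log2 fold change in replicates 1 and 2 (horizontal) against the mean log2 difference of both hairpins in replicate 3 (vertical) for the 136 named genes, 1 point each. HDAC6 and MAGEC1 are low and CHAC1 and FBN2 high on both axes, and SLC39A6, KIF3B and ZHX1 are high on the horizontal axis only.

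The hairpin effect was set against that of 7.65 µM Nexturastat A in 2 treated and 2 DMSO (Ctrl) libraries labelled day 2, through an interaction term in 1 edgeR quasi-likelihood fit, where 7977 of 18829 genes (42.4%) differed. These 4 libraries had CDKN2A at no more than 0.0345 CPM and IRS4 at 0, so the difference between agents and that between the cells cannot be told apart. HDAC6 mRNA had a log2 difference of -0.16 ± 0.13 (SE) with the drug, and the hairpin effect minus the drug effect was -1.78 (95% interval -2.15 to -1.41). For SLC39A6 the drug gave 0.32 ± 0.11, and for KIF3B 0.22 ± 0.12. CHAC1 was higher with the drug at 0.90 ± 0.23, and the hairpin effect exceeded it by 1.47 (95% interval 0.82 to 2.13).

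AURKB was at -1.68 ± 0.64 with Nexturastat A, and the difference was -0.17 (95% interval -2.07 to 1.73), an interval wide enough to hold either sign. The drug libraries had 7.25 and 44.9 CPM of AURKB against 83.2 and 83.6 CPM in Ctrl, and the sign turned positive without replicate 2 of the drug. For SRRM2 the drug gave -0.84 ± 0.18, with a difference of -1.28 (95% interval -1.78 to -0.78). Metallothioneins had opposite values in the 2 experiments, MT2A at 1.68 ± 0.24 with the drug and a difference of -2.55 (95% interval -3.22 to -1.87). CYR61 stood at 1.34 ± 0.12 with the drug, a difference of -2.40 (95% interval -2.75 to -2.05), and DICER1 at -0.37 ± 0.13, a difference of 1.39 (95% interval 1.03 to 1.75). HDAC6 was set with the choice of the contrast and the other genes were named for their hairpin change, so their differences are a description with no test.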

How the data were processed

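RNA was sequenced in 22 libraries labelled MDA-MB231, of which 6 enter the main tests. Per the submitters' processing notes, reads were trimmed with Trim Galore 0.6.7, aligned with STAR 2.7.9a to GRCh38 and counted with featureCounts 2.0.3, and DESeq2 1.30.1 was used. The authors deposited raw counts per gene symbol for each library. No source used here gives the annotation or the strand setting. Of 26485 symbols, 24586 were matched to GENCODE release 29 for position, GC content and length.

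Genes with 10 counts in 2 of the 6 libraries were tested with edgeR 4.0.16 in R 4.3.3 (TMM, robust quasi-likelihood F test) and Benjamini-Hochberg adjustment over all genes tested, with a threshold of 0.05. Levels are CPM and errors are the SE of the fit. With 4 against 2 libraries an exact two-sided permutation test of a single gene cannot go below p = 0.0667, so calls rest on the spread shared across genes. Trends on GC content and length were removed per library with splines of 3 degrees of freedom. DESeq2 1.42.0 and limma 3.58.1 voom served as alternatives. The fit was also run on simulated counts. These had the same spread for every gene and no GC trend, unlike these data, so that run does not bear on the calls.

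Members, lists and tests were chosen with earlier results of these data known. Named genes are HDAC6, SLC39A6, CHAC1 and AURKB, every other called histone deacetylase or sirtuin, the 12 highest and 12 lowest log2 fold changes among called genes whose hairpin and shCtrl libraries do not overlap and that average 5 or more in log2 CPM, and the 4 called members of each list with the largest changes, apart from some genes that are not reported here. Other genes named in the text illustrate a list and were chosen after their values were seen. Replicate libraries of a group differed by more than sampling noise (chi-square per gene 12.1 to 37.5), so none was taken as a repeat.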

Additional observations from a re-analysis of the deposited data

Results flagged for a closer look

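Among the 4 hairpin libraries, 6 of 136 named genes had 1 library far from the other 3, past the 95% critical value of Dixon's test. Chance alone flags about 1 in 20 such groups. In shHDAC6-2 replicate 2, SLC38A2 stood low at 351 CPM against 423 CPM or more elsewhere and SQLE stood low at 106 CPM against 118 CPM. In the same library VARS stood high at 477 CPM, HSPA1B at 293 CPM and BCL2L2 at 39.4 CPM. In shHDAC6-1 replicate 2, ATP5B stood high at 1130 CPM. Each of these libraries lies on the same side of both controls as the other hairpin libraries.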

How the results depend on the processing

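The pooled count of 5897 calls ranged from 4898 to 7907 over other scalings, filters, tools, the replicate block (6174) and the removal of GC and length trends. Leaving out a library gave 4040 (without shCtrl replicate 2) to 6528. The main calls had the opposite sign in 0 genes under these alternatives, except in 43 with trends removed and 1885 with replicate 3 included, where none was called. Replicate numbers did not pair the libraries in the same way across groups. Deviations of like number correlated at 0.55 between shCtrl and shHDAC6-2, -0.22 between shCtrl and shHDAC6-1 and 0.068 between the hairpins. With the replicate block the single hairpins gave 6154 and 5684 calls. For shHDAC6-1 alone, leaving out a library gave 3213 (without shHDAC6-1 replicate 2) to 5971, and 3469 without shHDAC6-1 replicate 1. Between the hairpins the count of 0 became 12 with no filter on low counts and 1 to 66 when a library was left out, the highest without shCtrl replicate 2 (66) or 1 (65); the cause was not tested. Of 136 named genes, 113 kept their call in every leave-one-out fit. Of 58 list counts, 21 moved without shCtrl replicate 2 and 4 to 9 without each other library. Of 15 promoter shares, 13 moved in the 150-base window. That window lies inside the longer one, so a share there can only be equal or lower. The AURKB difference from Nexturastat A was 0.31 with the replicate block and 1.65 without Nexturastat A replicate 2. With all 9 libraries, 34 named genes changed sign, to log2 fold changes of SIRT1 -0.25, SIRT6 0.56, SIRT2 0.23, PAK4 0.14, SEPT7 -0.79, TUBB3 0.86, TUBG2 0.063, PYCR1 0.51, SLC7A11 -0.027, SLC38A2 -0.38, AARS 0.030, CCNA2 -0.33, RRM2 -0.10, CDKN1A 1.05, BOK 1.36, SLC30A7 -0.48, SLC39A8 -0.062, MT1E 0.10, MT1X 0.77, MT2A 1.21, STAG1 -0.55, SMC2 -0.74, MX2 1.00, OAS1 0.56, CLK1 -0.76, CYR61 1.63, CTGF 1.24, NR4A1 1.40, KLF2 1.16, MAGEB2 0.81, TGFBR2 -0.18, CLDN7 1.60, TGFBR1 -0.98, ATP5F1 -0.23. Low counts leave MX2 and MAP1LC3A imprecise.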
